A study of Homo sapiens with 6 samples.

Results

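FTH1, FECH, HEBP1, IREB2 and BLVRB are 5 human genes of iron storage, haem handling and iron sensing. They were picked by gene symbol from a deposited table of 11351 genes, and all 5 were in it. RNA had been sequenced from IMR32, an established human neuroblastoma cell line, after 24 h with 20 µM sAKZ692 or with its solvent DMSO alone. Each group had 3 libraries, and apart from the compound both groups were grown and handled alike, per the labels. According to the study's design text sAKZ692 activates NRF2, the transcription factor of the oxidative stress response. The comparison asks how these transcripts stood after the compound. No group lacked NRF2, so effects through NRF2 cannot be told apart from other effects of the compound. Nothing in the labels tells separate cultures from repeat libraries of a single one, so p-values measure the spread between these libraries, which can be technical.

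Free iron drives the formation of damaging radicals, and cells keep it low by storing it in ferritin, a hollow shell built of heavy and light chains. Iron that is not stored is built into iron-sulfur clusters or into haem, the iron-containing ring of cytochromes and of many enzymes. Haem oxygenase opens that ring and releases the iron, and biliverdin reductases then turn the green pigment biliverdin into bilirubin. Iron regulatory proteins sense iron and bind a hairpin in messenger RNAs, the iron-responsive element. Bound near the start of ferritin mRNA they block its translation. NRF2 is known to activate ferritin and several haem genes in other cells, and BACH1, a repressor that haem inactivates, occupies many of the same DNA elements.

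FTH1 carries such a hairpin. It is shown because it is the site through which the product of one of the 5 genes, IREB2, acts on the mRNA of another. The site lies in the 5′ UTR of FTH1 at chr11:61967573-61967602 on the minus strand of GRCh38 in GENCODE 29. The capitals mark the loop of 6 bases.
FTH1 iron-responsive element: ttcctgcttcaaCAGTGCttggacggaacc

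The search behind it took a C, 5 further bases, the loop CAGTGN and then 5 bases able to pair with the 5 before the loop, G-U pairs allowed, on the sense strand alone. In the 5′ UTR this pattern occurred in 31 of 19652 coding genes, a share of 0.158%. In the 3′ UTR it occurred in 128 of them. Among the iron and haem genes listed for this comparison the 5′ UTR matches were FTH1, FTL, ALAS2 and SLC40A1. FECH, HEBP1, IREB2 and BLVRB held no match in either UTR.

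Promoter windows from RefSeq (GRCh38.p14) matched by symbol for FECH, IREB2 and BLVRB, 3 of the 5 genes. The 250 bases before the start of FECH and BLVRB are shown because these genes stand for the uniform and the divided response described below. Capitals mark matches, on either strand, to the core of the antioxidant response element that NRF2 binds (TGACNNNGC) or to the GC box (GGGCGG).
FECH, minus strand of chr18:57586703-57586952: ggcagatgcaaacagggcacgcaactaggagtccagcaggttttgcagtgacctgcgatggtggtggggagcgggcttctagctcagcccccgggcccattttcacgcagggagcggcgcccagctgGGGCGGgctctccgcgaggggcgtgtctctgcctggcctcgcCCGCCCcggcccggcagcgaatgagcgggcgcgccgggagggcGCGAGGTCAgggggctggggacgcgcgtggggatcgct
BLVRB, minus strand of chr19:40465746-40465995: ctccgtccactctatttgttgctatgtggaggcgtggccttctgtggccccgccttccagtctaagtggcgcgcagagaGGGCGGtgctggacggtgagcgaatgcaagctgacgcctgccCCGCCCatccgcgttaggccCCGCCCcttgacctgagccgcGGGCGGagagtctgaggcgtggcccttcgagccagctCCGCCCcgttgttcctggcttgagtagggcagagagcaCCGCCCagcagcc

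The FECH window held 2 GC boxes and 1 antioxidant response element core, on the opposite strand. The outer edge of this core lies 38 bases before the RefSeq start. The BLVRB window held 6 GC boxes and no such core. In GENCODE 29 both genes begin within these windows, FECH at chr18:57586772 and BLVRB at chr19:40465840. By that annotation the FECH core lies inside the gene. So do the BLVRB GC boxes that begin 88, 51 and 13 bases before the RefSeq start. For IREB2 the window of one start site held 2 GC boxes and that of another held none, and neither held the core. Of 34943 promoter windows of this length, 10.9% held the core and 42.5% a GC box. The AP-1 and MAF core (TGANTCA), which can overlap the first motif, was in 6.59% of windows and in none of these.

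Values are TPM, transcript abundance per length as parts of a fixed library total. The listed genes held 65.9% of that total in replicate 3 of sAKZ692 and 61.2% to 61.9% in the other libraries. The depth of each library is unknown, since TPM does not carry read counts. The 9137 genes averaging 1 TPM or more over the 6 libraries were compared with limma on log2(TPM + 1), and adjusted p-values are Benjamini-Hochberg values over all of them. At an adjusted p under 0.05, 32.6% of them passed, 24.1% higher and 8.50% lower in treated than in solvent libraries. The median log2 fold change was 0.14, and it moved to -0.03 after median-ratio scaling, which sets the typical gene equal between libraries. Replicate 3 of sAKZ692 stood apart, correlating with replicates 1 and 2 across genes at r = 0.971 and 0.972, against 0.992 between those. NQO1, SLC7A11 and SRXN1, standard readouts of NRF2, were each higher in every treated library than in any DMSO library, with log2 fold changes of 1.97, 2.76 and 1.09. SLC7A11 was under 1 TPM in each DMSO library, so it reached the tested set through its treated level.

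Of the neuroblastoma markers 8 of 13 were in the table and summed to 2819 to 2986 TPM with DMSO and 3123 to 3305 TPM with sAKZ692. TH, a defining enzyme of the lineage, was at 0.186 to 0.682 TPM with DMSO and at 0.971, 1.00 and 5.24 TPM with sAKZ692. MYCN, at 1389 ± 41.9 and 1432 ± 92.4 TPM, was the most abundant of them. CHGB was called higher (26.3 ± 0.977 to 54.7 ± 8.21 TPM, adjusted p = 0.00110 in limma), and CHGA averaged 295 ± 26.0 TPM with DMSO and stood at 485, 511 and 183 TPM in the treated libraries. For erythroid cells, which make most of the body's haem, 4 of 11 markers were in the table. These summed to 5.36 to 6.01 TPM and to 11.5 to 12.3 TPM, most of it EPOR. EPOR was called higher (4.45 ± 0.357 to 10.8 ± 0.193 TPM, adjusted p = 0.000763 in limma). HBG2, KLF1 and SLC4A1 were below 1 TPM in each library. Of the markers of iron-recycling macrophages, 4 of 8 were present, summing to 2.78 to 4.14 and 3.47 to 3.97 TPM. Of the stromal markers 2 of 7 were present, summing to 3.60 to 4.76 and 8.25 to 9.91 TPM, most of it PDGFRB. PDGFRB was called higher (3.98 ± 0.467 to 8.50 ± 0.908 TPM, adjusted p = 0.00257 in limma), while DCN was below 1 TPM in each library. None of these genes was at 0, and their part in the results was not tested.

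With sAKZ692, FTH1, FECH, HEBP1 and IREB2 were higher, by 1.30-fold for IREB2 to 1.73-fold for HEBP1 in ratios of mean TPM. BLVRB was higher in 2 of the 3 treated libraries and near the solvent level in replicate 3, and did not pass the test. That makes 4 of the 5 genes called higher, against 24.1% of all genes tested. The 5 genes were chosen with earlier results of these data known, so these shares are a description only. Without replicate 3 all 5 were called higher, BLVRB included, when 34.6% of all genes were (49.1% in either direction). After median-ratio scaling 2 of the 5, FECH and HEBP1, were called higher, when 13.6% of all genes were (32.8% in either direction). In all 5 the lowest treated library lay above the highest DMSO library, as in 35.9% of all genes tested. The plot of TPM by library shows both patterns.

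**Figure D1:**
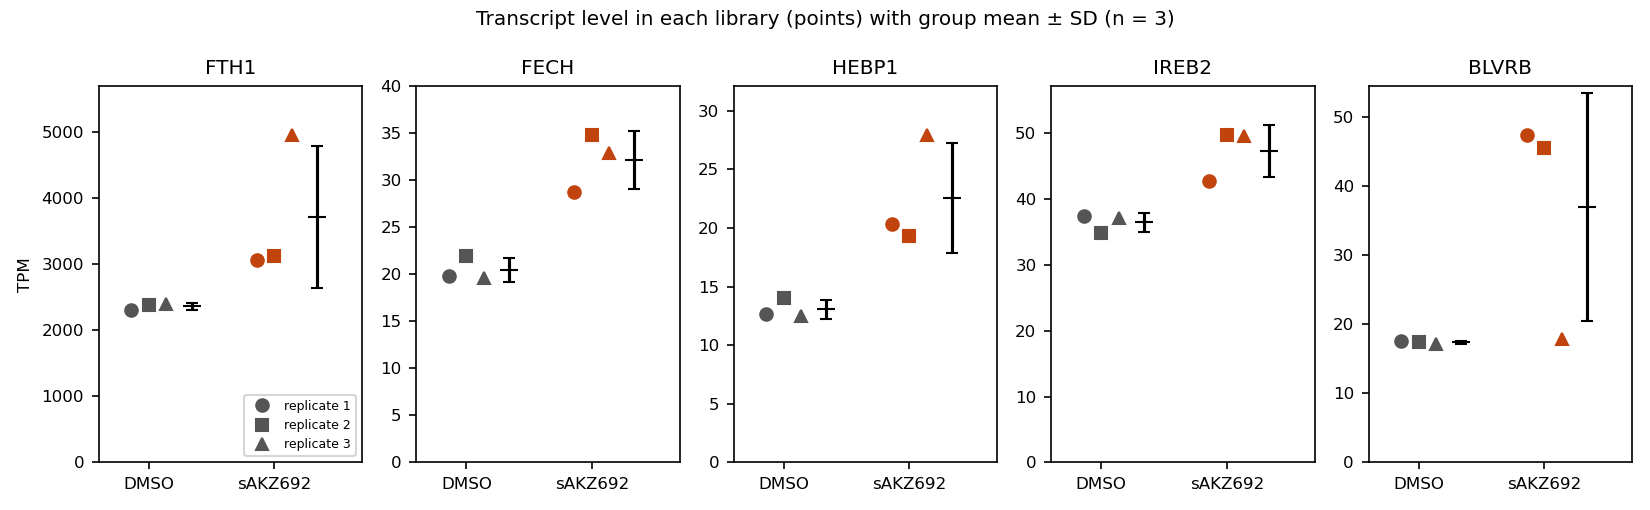
Transcript level in TPM of the 5 genes in each of the 6 libraries, one panel per gene with its own axis from 0. Points are libraries, their shapes the replicate numbers, and bars the group mean ± SD (n = 3). FTH1 and HEBP1 were highest in replicate 3 of sAKZ692 (4954 and 27.9 TPM), while BLVRB was at 17.9 TPM there against 47.3 and 45.4 TPM in replicates 1 and 2.

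FTH1 encodes the ferritin heavy chain, the subunit that oxidises ferrous iron so that it can be stored. It stood at 2306, 2379 and 2404 TPM in the DMSO libraries and at 3065, 3124 and 4954 TPM in replicates 1, 2 and 3 of sAKZ692. The treated libraries all lay above the DMSO libraries, and replicate 3 stood far above replicates 1 and 2. No overlap with replicate 3 highest was found in 1530 of the 9137 genes tested. The mean rose from 2363 ± 50.7 to 3714 ± 1074 TPM (SD, n = 3). This is a log2 fold change of 0.62 (SE 0.18, adjusted p = 0.0335 in limma). FTH1 was already one of the most abundant transcripts with DMSO, ranking 24, 24 and 23 among the genes of the table, and it ranked 11, 9 and 7 in the treated libraries.

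The size of the FTH1 change depended on replicate 3 of sAKZ692. Without that library the log2 fold change was 0.39, and it passed with a smaller p (adjusted p = 7.56e-05). The call was lost after median-ratio scaling, where the log2 fold change of FTH1 was 0.43 (adjusted p = 0.109). It was also lost without any 1 DMSO library (adjusted p between 0.0941 and 0.103) and, narrowly, with no filter on low values (adjusted p = 0.0505). FTH1 lay above the DMSO libraries under each of these settings.

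Ferritin heavy chain has many processed pseudogenes, and reads of FTH1 can be divided among them. Of the 31-base words in FTH1 transcripts of GENCODE 29, 27.1% also occur in transcripts of other genes. For FECH, HEBP1, IREB2 and BLVRB that share was 0.0654%, 0.641%, 4.58% and 0.734%. The table held 8 rows named as FTH1 pseudogenes, of which 7 lay between 0.205 and 1.22 TPM in every library. The remaining one, FTH1P15, was at 22.2, 19.6 and 18.9 TPM with DMSO and at 32.0, 32.5 and 68.4 TPM with sAKZ692. Its order over the treated libraries was that of FTH1, with replicate 3 highest. Its log2 fold change was 1.00 (SE 0.27, adjusted p = 0.0266 in limma), a call lost under median-ratio scaling, quantile normalization and without any 1 DMSO library (adjusted p up to 0.0959). Without replicate 3 of sAKZ692 it was 0.65 (adjusted p = 0.000443). FTH1P15 amounted to 0.788% to 0.964% of FTH1 with DMSO and to 1.05%, 1.04% and 1.38% with sAKZ692, and 21.6% of its own 31-base words occur in FTH1. Whether its reads came from FTH1 was not tested. All pseudogene rows together came to at most 1.51% of FTH1 in any library.

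BEST1, a chloride channel gene on the opposite strand whose annotation overlaps FTH1 by 5798 bases, was examined after its values were seen. It was at 0.475, 0.486 and 0.494 TPM with DMSO and at 1.78, 1.95 and 3.44 TPM with sAKZ692, again highest in replicate 3. The 31-base words of FTH1 occur as reverse complements in BEST1 transcripts for 53.9% of their number, and the use of strand in the counting is not given in the sources used here. Whether reads from FTH1 and BEST1 were told apart over that stretch is therefore not known, and BEST1 is uncertain. At its level BEST1 is small beside FTH1.

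Beside FTH1, PCBP3 and PCBP4 were called higher among genes of ferritin and iron storage. PCBP3 and PCBP4 belong to the poly(C)-binding protein family, some of whose members carry iron to ferritin. PCBP3 stood at 20.7, 20.5 and 15.6 TPM in DMSO and at 45.6, 40.1 and 34.8 TPM in treated libraries, a log2 fold change of 1.05 (SE 0.14, adjusted p = 0.00211 in limma). PCBP4 rose from 105 ± 4.89 to 150 ± 4.54 TPM (SD, n = 3), or by 0.52 on the log2 scale (adjusted p = 0.00187). Both calls held in all 16 alternative settings. NCOA4, the receptor that delivers ferritin to the lysosome, was at 47.1 ± 1.55 and 64.7 ± 14.9 TPM and did not pass (adjusted p = 0.0590), with replicate 3 at 81.8 TPM against 57.6 and 54.6 TPM. NCOA4 passed without replicate 2 or without replicate 3 of sAKZ692, at log2 fold changes of 0.53 and 0.25, and with listed genes rescaled to the same sum in each library (0.40, adjusted p = 0.0441). Of 8 genes on this list 4 were in the table and tested, of which 3 were higher and 0 lower, where 24.1% and 8.50% of all genes were. Without FTH1's call, as with no filter, after median-ratio scaling and without any 1 DMSO library, 2 were higher. In these settings 2277 of 11351, 13.6% and 1213 to 1260 of 9137 genes were higher. FTL, the light chain, was not analysed here, so the balance of the ferritin chains cannot be given.

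IREB2 encodes iron regulatory protein 2, the RNA-binding protein that grips hairpins such as the one in FTH1 and that is degraded when iron is plentiful. Its mRNA was at 37.4, 34.8 and 37.1 TPM with DMSO and at 42.7, 49.7 and 49.5 TPM with sAKZ692. The groups did not overlap, and replicate 1 was the lowest of the treated libraries. The mean rose from 36.5 ± 1.42 to 47.3 ± 3.99 TPM (SD, n = 3), or by 0.36 on the log2 scale (SE 0.09, adjusted p = 0.0170 in limma). This was the smallest change among the 5 genes, larger than that of 71.2% of all genes tested.

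The IREB2 call was sensitive to the processing. Median-ratio scaling gave IREB2 a log2 fold change of 0.18 (adjusted p = 0.137). Quantile normalization gave 0.27 (adjusted p = 0.0528). The call was also lost without any 1 DMSO library or without replicate 2 of sAKZ692 (adjusted p between 0.0544 and 0.0738).

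ACO1 encodes iron regulatory protein 1, which doubles as cytosolic aconitase when it holds an iron-sulfur cluster. It averaged 16.2 ± 1.07 TPM in DMSO and 14.6 ± 2.46 TPM in treated libraries (SD, n = 3) and did not pass (adjusted p = 0.416). FBXL5, the iron-sensing ubiquitin ligase subunit that marks iron regulatory proteins for degradation, was at 27.5 ± 0.988 and 25.3 ± 2.48 TPM (adjusted p = 0.369), and was called lower after median-ratio scaling alone (log2 fold change -0.29). SKP1, a partner of FBXL5 in that ligase and the most abundant gene of the list, averaged 586 ± 4.68 TPM with DMSO and stood at 497, 485 and 790 TPM in the treated libraries. Its direction thus differed between replicate 3 and the other treated libraries, and without replicate 3 it was called lower (log2 fold change -0.26). Of the 4 genes of iron regulation tested, 1 was higher and 0 lower, a share of 25% higher that is near the 24.1% of all genes. After median-ratio scaling 0 were higher and FBXL5 was lower, where 13.6% and 19.2% of all genes were. The ratio of IREB2 to ACO1 was taken within each library as the difference of their log2(TPM + 1). It was 1.13 ± 0.12 with DMSO and 1.64 ± 0.34 with sAKZ692 (SD, n = 3). The treated libraries, at 1.28, 1.68 and 1.95, all lay above the DMSO libraries, at 1.09, 1.03 and 1.26. A two-sided exact permutation test gave p = 0.10, the smallest that 3 against 3 libraries allow.

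FECH encodes ferrochelatase, the mitochondrial enzyme that inserts iron into protoporphyrin in the last step of haem synthesis. It was at 19.8, 21.9 and 19.6 TPM with DMSO and at 28.7, 34.8 and 32.9 TPM with sAKZ692. Every treated library was well above every DMSO library, and replicate 3 lay between replicates 1 and 2. The mean rose from 20.5 ± 1.26 to 32.1 ± 3.10 TPM (SD, n = 3), or by 0.62 on the log2 scale (SE 0.10, adjusted p = 0.00391 in limma). The call held in all 16 alternative settings, with the log2 fold change of FECH between 0.45 after median-ratio scaling and 0.70 without replicate 1 of sAKZ692.

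FECH was the only gene called higher among the 11 tested of haem synthesis, and 0 were lower, where 24.1% and 8.50% of all genes were. After median-ratio scaling 3 of the 11 (27.3%) were lower, ABCB10, CLPX and UROS, against 19.2% of all genes. With replicate 1 or replicate 3 of sAKZ692 left out, 3 (27.3%) were higher. Of all 9137 genes, 1765 were higher without replicate 1, and 3163 (34.6%) without replicate 3. ALAS1, the rate-limiting first enzyme outside erythroid cells, averaged 30.1 ± 1.04 TPM with DMSO, stood at 35.3, 37.7 and 61.2 TPM with the compound and did not pass (adjusted p = 0.0739). As for FTH1, replicate 3 was highest. ALAS1 passed without replicate 1 or without replicate 3 of sAKZ692, at log2 fold changes of 0.66 and 0.27. TMEM14C, a porphyrin carrier of the mitochondrial membrane and the gene with the highest level on the list, was at 86.9 ± 1.62 and 88.2 ± 11.8 TPM (adjusted p = 0.931). ALAD and UROD, at log2 fold changes of 0.28 and 0.22, did not pass either (adjusted p = 0.0759 and 0.0558). ALAD passed without replicate 1 of sAKZ692 (0.37) and UROD without replicate 3 (0.27).

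HEBP1 encodes haem-binding protein 1, a small cytosolic protein that binds haem and porphyrins and whose cleaved N-terminal peptide attracts immune cells. It was at 12.6, 13.98 and 12.5 TPM with DMSO and at 20.4, 19.3 and 27.9 TPM with sAKZ692. All treated libraries lay above all DMSO libraries, with replicate 3 highest, as for FTH1 and as in 1530 of all 9137 genes tested. The mean rose from 13.0 ± 0.811 to 22.5 ± 4.68 TPM (SD, n = 3), or by 0.73 on the log2 scale (SE 0.14, adjusted p = 0.00853 in limma). The call held in all 16 alternative settings. The log2 fold change of HEBP1 ranged from 0.53 after quantile normalization to 0.82 without replicate 2 of sAKZ692.

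Its relative HEBP2 averaged 45.1 ± 2.87 TPM in DMSO and 43.1 ± 4.06 TPM in treated libraries (SD, n = 3) and did not pass (adjusted p = 0.628). HEBP2 remained the more abundant of the pair in every library. The TPM ratio of HEBP1 to HEBP2 was 0.261, 0.323 and 0.288 with DMSO and 0.454, 0.420 and 0.725 with sAKZ692. On the log2(TPM + 1) scale the ratio was 0.79 higher with sAKZ692, with no overlap between the groups (two-sided exact permutation test, p = 0.10, the smallest possible).

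BLVRB encodes biliverdin reductase B, which reduces flavins and the biliverdin isomers formed early in life. It was at 17.5, 17.4 and 17.1 TPM with DMSO and at 47.3, 45.4 and 17.9 TPM in replicates 1, 2 and 3 of sAKZ692. Replicates 1 and 2 were at 2.73 and 2.62 times the DMSO mean, and replicate 3 at 1.03 times. The DMSO libraries had an SD of 0.196 TPM, so the division lies wholly in the treated group. The log2 fold change was 0.93 with a 95% confidence interval from 0.16 to 1.69 and did not pass (adjusted p = 0.0651 in limma). Without replicate 3 the log2 fold change of BLVRB was 1.37 (adjusted p = 6.81e-06).

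Replicates 1 and 2 of sAKZ692 were both at least 1 above the DMSO mean on the log2 scale in 299 genes. In 23 of these, 7.69%, replicate 3 lay within 0.25 of the DMSO mean, and BLVRB is 1 of the 23. These limits were chosen after the BLVRB values were seen. They leave out smaller changes of the same shape, such as that of BACH1 (0.82, 0.81 and -0.03 in replicates 1, 2 and 3). How common such a division is was therefore not measured. The NRF2 readouts differed in replicate 3. NQO1 was highest there, at 84.7 TPM against 61.0 and 52.0 TPM in replicates 1 and 2. SRXN1 was highest there too, at 38.1 TPM against 32.6 and 32.2 TPM. SLC7A11 was lowest there, at 5.98 TPM against 9.77 and 13.9 TPM.

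BACH1, the haem-sensing repressor named above, had the same division as BLVRB. It was at 22.3, 22.9 and 22.6 TPM with DMSO and at 40.8, 40.4 and 22.1 TPM in replicates 1, 2 and 3 of sAKZ692, and did not pass with all libraries (adjusted p = 0.0953). Without replicate 3 its log2 fold change was 0.81 (adjusted p = 3.84e-05). The plot of each treated library against the DMSO mean sets BACH1 beside the 5 genes.

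**Figure D2:**
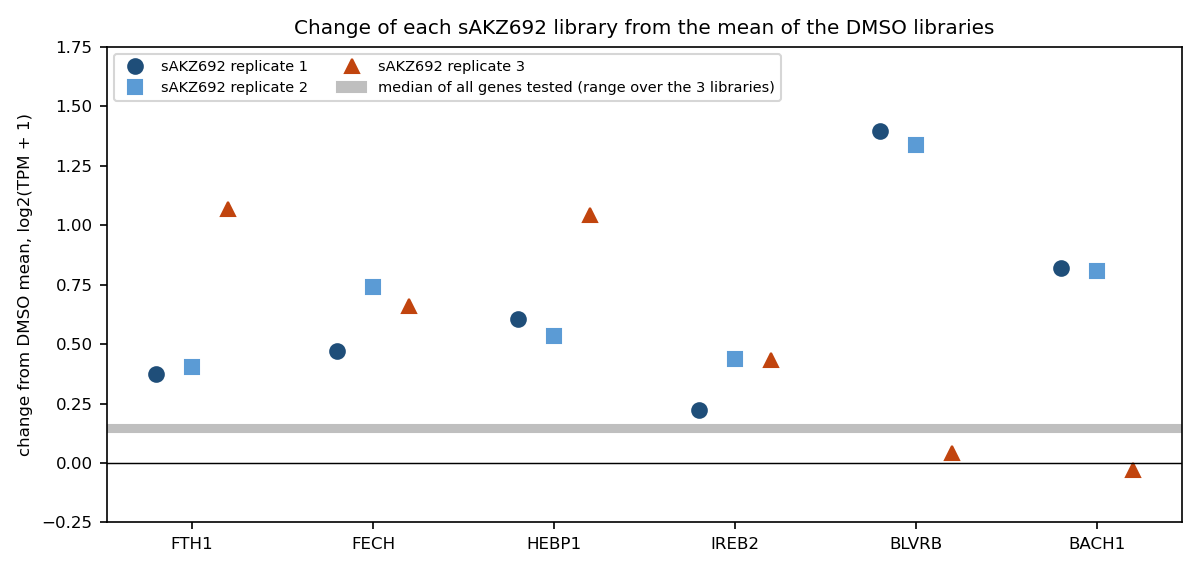
Change of each sAKZ692 library from the mean of the 3 DMSO libraries, in log2(TPM + 1), for the 5 genes and BACH1. Shapes are replicates, and the grey band spans the median change over all genes tested in the 3 libraries (0.13 to 0.16). Replicate 3 (triangles) was highest for FTH1 and HEBP1, at 1.07 and 1.04, and near 0 for BLVRB and BACH1, at 0.04 and -0.03.

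BLVRA, the reductase of the main adult biliverdin, was at 55.5 ± 2.45 and 50.7 ± 5.60 TPM (SD, n = 3) and did not pass (adjusted p = 0.320), though it was called lower after median-ratio scaling (log2 fold change -0.31). The TPM ratio of BLVRB to BLVRA was 0.332, 0.306 and 0.301 with DMSO and 0.884, 0.835 and 0.404 with sAKZ692. Within each library BLVRA stayed the more abundant. Replicate 3 lay above the DMSO libraries in this ratio, and BLVRA was lowest there, at 44.3 TPM. On the log2(TPM + 1) scale the BLVRB to BLVRA ratio was 1.06 higher with sAKZ692 (two-sided exact permutation test, p = 0.10, the smallest possible).

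Of 9 genes tested of haem binding, transport and breakdown, 2 were higher and 0 lower, a share of 22.2% higher that is near the 24.1% of all genes. Without replicate 3 of sAKZ692, 5 were higher, where 34.6% of all genes were. Under median-ratio scaling the calls were HEBP1 higher and BLVRA lower, where 13.6% and 19.2% of all genes were. PGRMC1, a membrane protein that binds haem, was the second beside HEBP1, rising from 92.0 ± 2.00 to 118 ± 18.6 TPM (SD, n = 3). Its log2 fold change was 0.34 (adjusted p = 0.0462 in limma), and the call was lost in 8 of 16 alternative settings (adjusted p up to 0.299). HMOX2, the constitutive haem oxygenase, was at 19.8 ± 0.763 and 19.6 ± 0.680 TPM (adjusted p = 0.889). HMOX1, the inducible haem oxygenase, was not analysed here.

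Over the other 49 iron and haem genes tested, 4 were higher and 4 lower, where 24.1% and 8.50% of all genes were. Their median log2 fold change was 0.01, against 0.14 over all genes tested. The median of the 5 genes was 0.62, but these were chosen with earlier results of these data known. Their distance from the other genes is therefore a description and no test. The 6 lists, the 5 genes included, held 101 symbols, of which 59 were in the table and 54 were tested. Without replicate 3 of sAKZ692, 12 of the other 49 were higher and 7 lower, against 34.6% and 14.5% of all genes. After median-ratio scaling 3 were higher and 11 lower, against 13.6% and 19.2%. The plot of the lists shows the spread within each.

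**Figure D3:**
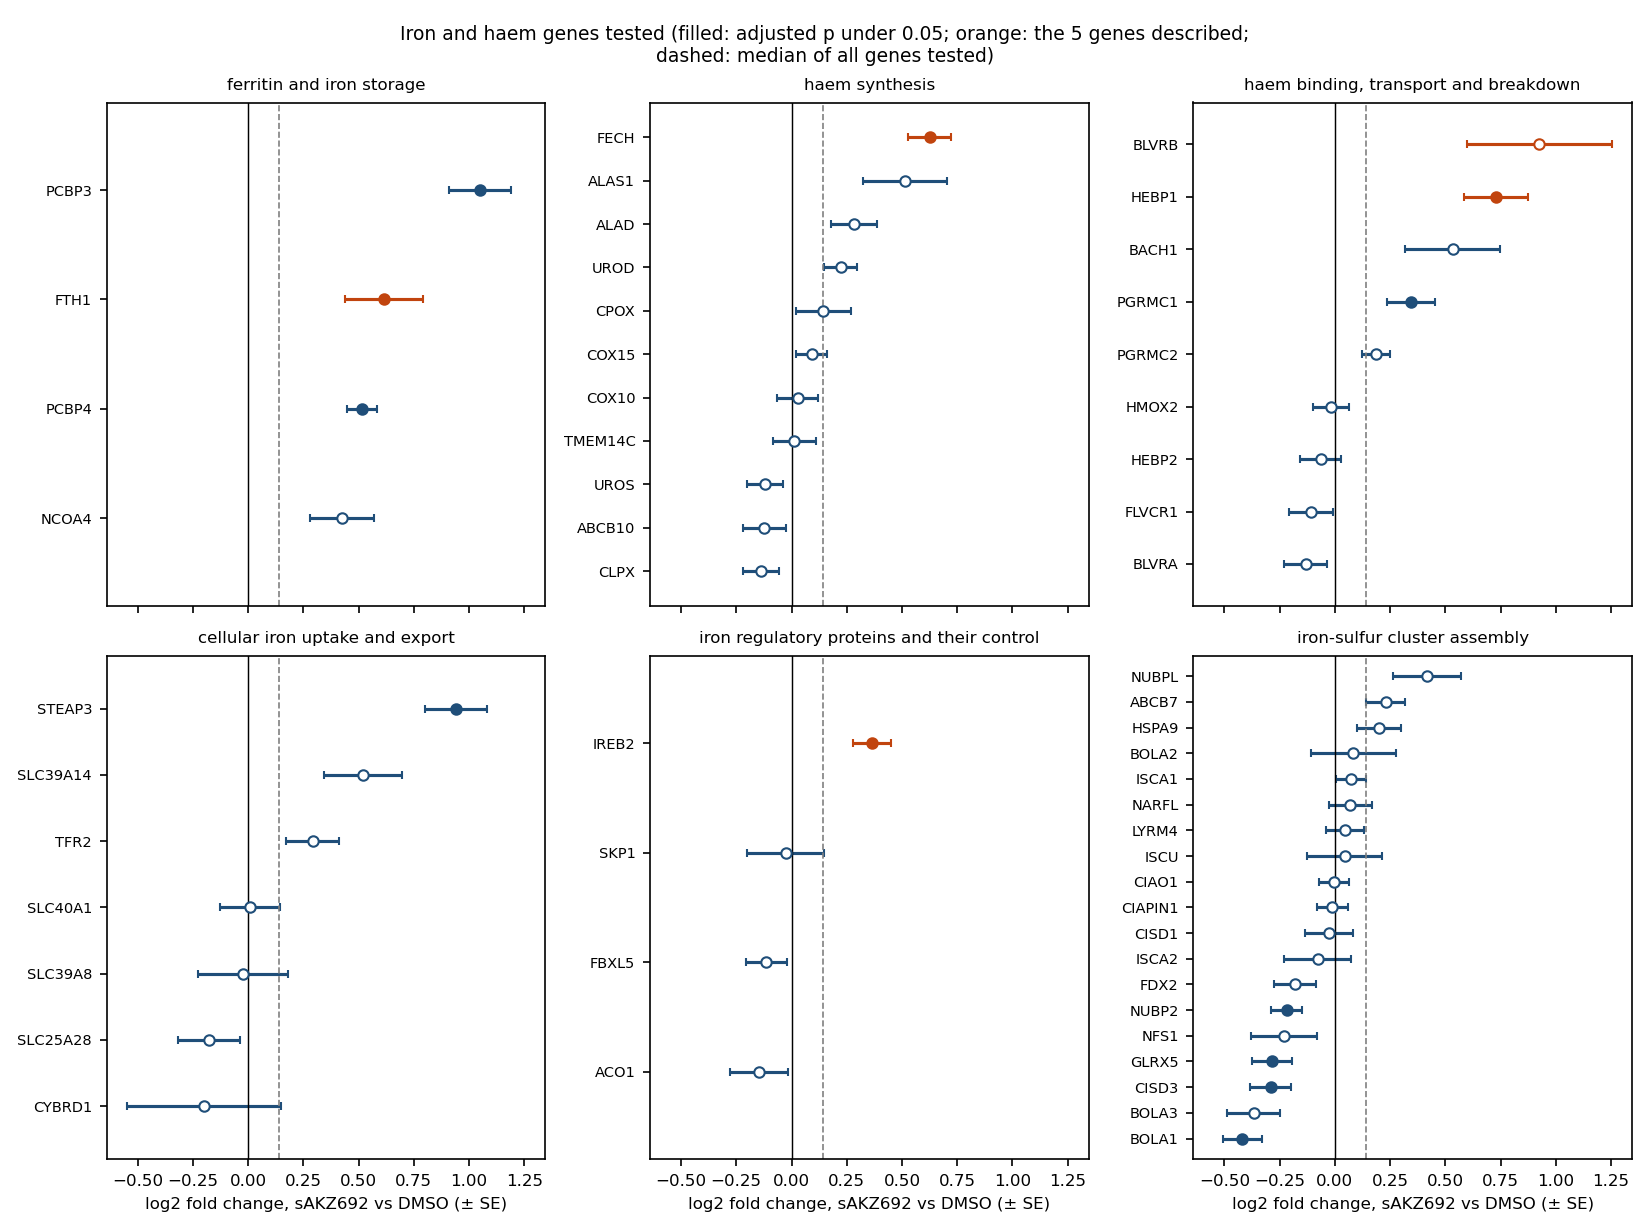
Log2 fold change ± SE, sAKZ692 against DMSO on log2(TPM + 1), for the 54 iron and haem genes tested, in panels by role. Filled points passed an adjusted p of 0.05 in limma, orange marks the 5 genes described and the dashed line is the median of all genes tested (0.14). FECH, at 0.62, is the highest of haem synthesis, and the 4 genes that passed in iron-sulfur cluster assembly were all lower.

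Among genes of cellular iron uptake and export 7 were tested, of which 1 was higher and 0 lower, where 24.1% and 8.50% of all genes were. Without replicate 3 of sAKZ692, 3 were higher (SLC39A14, STEAP3 and TFR2) and 1 lower (SLC25A28), where 34.6% and 14.5% of all genes were. With a minimum mean of 5 TPM, which leaves out STEAP3, 0 passed, where 2492 of all 7373 genes did. STEAP3, an endosomal reductase that prepares iron for leaving the endosome, rose from 0.832 ± 0.0436 to 2.52 ± 0.160 TPM (SD, n = 3). All its DMSO libraries were under 1 TPM, so it reached the tested set through its treated level. Its log2 fold change was 0.94 (adjusted p = 0.00327 in limma), and the 3 treated libraries lay close together. SLC39A14, a metal importer of the ZIP family and the gene with the highest level tested here, averaged 23.0 ± 3.34 TPM with DMSO, stood at 38.9, 36.9 and 25.4 TPM with the compound and did not pass (adjusted p = 0.0568). It passed without replicate 3 of sAKZ692 (log2 fold change 0.71, adjusted p = 0.00112) and with a block for replicate number (adjusted p = 0.0174). SLC40A1, the iron exporter ferroportin, which carries the hairpin in its 5′ UTR as FTH1 does, was at 2.36 ± 0.269 and 2.38 ± 0.0863 TPM (adjusted p = 0.963). TFRC, the transferrin receptor, was not analysed here.

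Of 19 genes of iron-sulfur cluster assembly tested, 0 were higher and 4 lower, a share of 21.1% against 8.50% of all genes. With 1 library left out between 0 (without DMSO replicate 3) and 5 (without replicate 3 of sAKZ692) were lower. In these 2 settings 443 and 1321 of all 9137 genes were. With a replicate block or without the trend in limma BOLA1 alone was lower, where 636 and 652 of all genes were. After median-ratio scaling 6 (31.6%) were lower, against 19.2% of all genes. BOLA1, a mitochondrial cluster-assembly factor, fell from 45.3 ± 3.19 to 33.7 ± 2.48 TPM (SD, n = 3), and decreased by 0.42 on the log2 scale (adjusted p = 0.0113 in limma), a call that was lost without DMSO replicate 3 (adjusted p = 0.0518). GLRX5, a glutaredoxin that passes on newly made clusters, CISD3, a mitochondrial cluster protein, and NUBP2, a cytosolic scaffold subunit, had log2 fold changes of -0.28, -0.29 and -0.22. Their adjusted p lay between 0.0479 and 0.0494. These 3 calls were lost in 11, 9 and 8 of the 16 alternative settings, with adjusted p up to 0.161. HSPA9, the mitochondrial chaperone of the pathway and its most abundant gene, was at 422 ± 22.0 and 487 ± 61.2 TPM (adjusted p = 0.157), passing after quantile normalization alone.

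Among the 5 genes FTH1 was by far the most abundant. FTH1 made up 0.374% to 0.751% of the summed TPM of the listed genes in each library, and no other of the 5 exceeded 0.00809%. The listed genes held 61.2% to 65.9% of the library total, so shares of that total are smaller. With DMSO the order below it was IREB2, FECH, BLVRB and HEBP1, each library of one lying above each library of the next. With sAKZ692 the libraries of FECH, at 28.7 to 34.8 TPM, and of HEBP1, at 19.3 to 27.9 TPM, stayed apart from each other and below IREB2, while those of BLVRB ran from 17.9 to 47.3 TPM and crossed all of them.

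Over the 6 libraries, which fall into a solvent and a treated set, log2(TPM + 1) of FTH1 and HEBP1 correlated at r = 0.965 and that of FECH and IREB2 at r = 0.942. BLVRB correlated with FTH1 at r = 0.173. These values describe the shared order of 6 libraries and carry no test. By the same measure the genes most like FTH1 were LDOC1, USP11 and FXR2 (r of at least 0.998), and those most like HEBP1 were EPHA10, SEC23B and RORB (r of at least 0.998). FECH was most like WASHC2C, UBXN4 and TTLL3 (r of at least 0.997), and IREB2 most like PPP3CA, RYR2 and RNF207 (r of at least 0.992). For BLVRB they were SURF4, TLE2 and BACH1 (r of at least 0.998). TLE2 averaged 10.8 ± 0.274 TPM with DMSO and stood at 32.0, 33.7 and 11.2 TPM with the compound, the same division between replicate 3 and the others.

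Across the processing settings the 5 genes divided into 3 kinds, as the plot of settings shows. FECH and HEBP1 passed throughout, FTH1 and IREB2 passed in 11 of 16 and 10 of 16 alternatives, and BLVRB passed in 1.

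**Figure D4:**
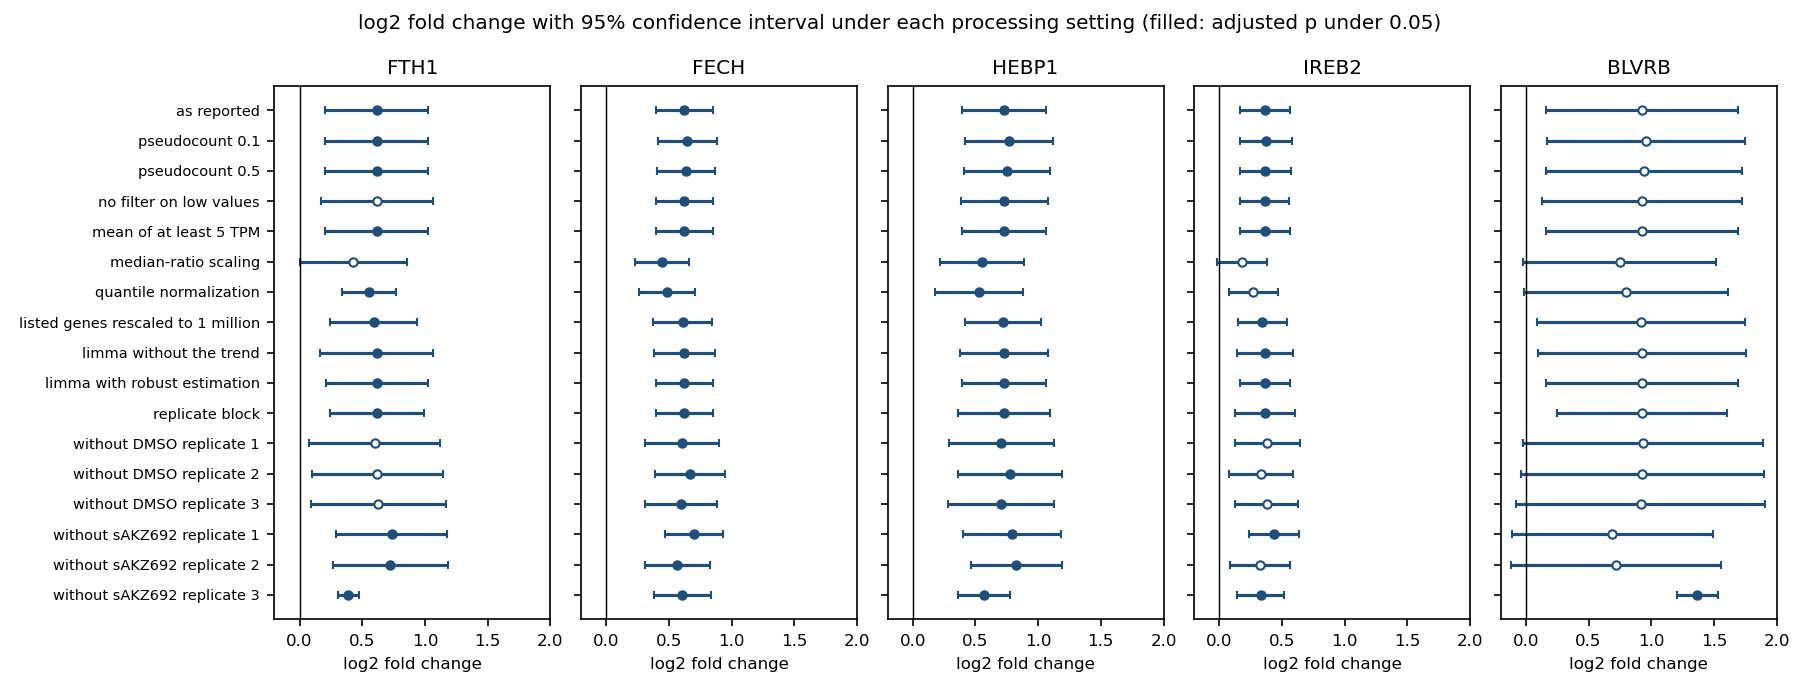
Log2 fold change with its 95% confidence interval for the 5 genes as reported and under 16 alternative settings, filled where the adjusted p was under 0.05. FECH and HEBP1 are filled in every row, BLVRB only without replicate 3 of sAKZ692 (1.37), and every estimate is above 0.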

How the data were processed

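RNA was sequenced from 6 IMR32 libraries, 3 with DMSO and 3 with sAKZ692, single-end and 50 bases long, per the labels' protocols. The authors deposited 1 table of TPM with 1 row per gene symbol. Kallisto was used, per the submitters' processing notes. The sources used here give no version, annotation, build or strand setting for it. TPM keeps no depth, so no counting interval was computed. Columns were matched to samples by title.

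From these values, genes averaging 1 TPM or more were transformed to log2(TPM + 1), a scale that understates changes of low genes, and fitted with limma 3.58.1 in R 4.3.3 with a mean-variance trend. The fit had no block, and p-values were adjusted by Benjamini-Hochberg over all 9137 genes. The step was tested on simulated data. Ratios of related genes within a library (3 pairs) were compared by two-sided exact permutation in scipy 1.17.1. Sequences came from RefSeq and GENCODE 29 (GRCh38).

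The members and gene lists were chosen with earlier results of these data known. An item of the lists is not reported here. Genes named were the 5 members, up to 4 called genes and the most abundant gene of each of 6 lists, the partners in the ratios, the 3 genes most alike to each member, FTH1 pseudogenes and 3 NRF2 readouts. Other named genes, among them NCOA4, ALAS1, ALAD, UROD, FBXL5, HMOX2, SLC40A1, BEST1 and the cell type markers, were added for their role or after their values were seen. Same-numbered libraries did not deviate together (r of 0.06, -0.02 and 0.04), so replicate numbers were not taken as pairs.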

Additional observations from a re-analysis of the deposited data

How the results depend on the processing

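FECH and HEBP1 kept their direction and their call in all 16 alternatives, and the other 3 genes kept their direction. FTH1 had log2 fold changes of 0.62 with no filter (adjusted p = 0.0505) and 0.43 after median-ratio scaling (0.109), and 0.39 to 0.74 when 1 library was left out. IREB2 had 0.18 after median-ratio scaling, 0.27 after quantile normalization and 0.33 to 0.43 with 1 library left out. BLVRB had 0.69 to 1.37 with 1 library left out, the highest without replicate 3 of sAKZ692, the only setting in which it passed.

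Genes called numbered 2981 in all and 12 among the iron and haem lists. With 1 library left out they numbered 1619 to 4484 and 5 to 24. Each DMSO library left out lowered both (to 1666, 1619 and 1656, and to 6, 6 and 5), and leaving out replicate 3 of sAKZ692 raised both. Median-ratio scaling gave 1242 higher and 1754 lower genes against 2204 and 777. A replicate block changed no call of the 5 genes and gave 2499 calls in all and 9 in the lists. The numbers were not shown to pair the libraries.

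Among genes that did not pass, SKP1 was at 0.14 after quantile normalization and at -0.26 to 0.096 with 1 library left out. TMEM14C was at -0.17 after median-ratio scaling, at -0.011 with each library's listed genes rescaled to the same sum and at -0.094 to 0.067 with 1 library left out. HEBP2 was at -0.11 to 0.014 with 1 library left out. For the ratios, the exact permutation test of 2 against 3 libraries cannot go below p = 0.20. The ratio of FTH1 to FTL was not run, since FTL was not analysed here. The cause of these shifts was not tested.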
